A study of Mus musculus with 6 samples.

Results

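The 29 genes described here are those by which bipolar cells, the interneurons between photoreceptors and ganglion cells, are commonly recognised in the mouse retina. They were taken by symbol from the gene tables, 29 of the 35485 genes listed, and all of them were among the 13670 genes with a mean RPKM (mapped reads scaled to exon length and to library size) above 0.3 in at least one group. They fall into 12 genes of rod bipolar cells and the ON signalling cascade, 11 genes of cone bipolar cells and 6 genes that belong to both classes or to neither. RNA of whole retinas was sequenced 2 days after optic nerve crush (ONC), in which the nerve was held with forceps for 10 seconds behind the eye, or after a sham operation in which it was exposed only. All mice were wild type C57BL/6 at 12 weeks of age, without any transgene. Each group had 3 samples, each of them a pool of RNA from 6 retinas of 6 mice, so the spread between samples is that between pools and not between single mice. ONC injures the axons of retinal ganglion cells (RGCs), and bipolar cells have no axon in the nerve.

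Bipolar cells receive glutamate from rods or cones. Rod bipolar cells and ON cone bipolar cells invert this signal: the metabotropic receptor GRM6 activates a Go protein that keeps the TRPM1 channel closed in the dark, and RGS proteins end the Go signal so that light opens the channel. OFF cone bipolar cells use ionotropic glutamate receptors in place of this cascade. Rod bipolar cells, which form a single type, are marked by protein kinase C alpha, while the cone bipolar cells are divided into many types by transcription factors, calcium-binding proteins and adhesion molecules. In bulk RNA, fewer cells of a type and less RNA per cell cannot be told apart.

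The sham pools held 17343945 to 18349331 exon reads each and the ONC pools 20019818 to 20358008, and the 29 genes received between 97 and 7824 exon reads in a single sample. Total exon reads were normalized by TMM and tested by quasi-likelihood in edgeR, and a gene was called changed at a false discovery rate (FDR, the Benjamini-Hochberg adjusted p over all 13670 genes) under 0.1. Of the RGC markers examined, 8 of 10 were called lower and 1 (Slc17a6) higher, compared with 3.72% and 2.38% of all genes tested. Their summed RPKM was 435 to 453 in the sham pools and 321 to 339 in the ONC pools. Photoreceptor markers were called higher in 3 of 11, with summed RPKM of 19609 to 20386 in sham and 21572 to 22894 in ONC, and microglia markers in 3 of 8, with sums of 17.6 to 19.6 and 28.7 to 31.8. Of 12 amacrine and horizontal cell markers, 2 (Calb1 and Calb2) were called lower, with sums of 388 to 430 and 358 to 384. Calb2 led these sums, with 202, 203 and 193 RPKM in sham pools 1, 2 and 3. In ONC pools 1, 2 and 3 it had 144, 157 and 145, so the lower sums do not show a fall of the whole set. None of the 7 Müller glia and none of the 6 pigment epithelium markers was called by edgeR. At an unadjusted edgeR p under 0.05 were 2 and 1 of them, compared with 16.7% of all genes tested. Of the lens and cornea markers, 1 of the 5 tested (Cryaa) was called higher. The sum of all 6 markers was 39.7, 6.56 and 8.75 in sham pools 1, 2 and 3 and 40.0 to 51.6 in ONC, so sham pool 1 stood near the ONC pools. On TMM-normalized exon reads Cryaa overlapped between the groups, with 30.3 in sham pool 1 and 30.0 in ONC pool 2. The part that these other cells had in the values of the bipolar cell genes was not tested.

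To show what lies before the start of the genes on which the comparison turns, the 250 bases before a RefSeq transcription start are printed for 4 cone bipolar genes that fell after ONC, and for Trpm1 and Cabp5, which were not called changed and hold a binding core of the homeodomain factors OTX2 and CRX. Each is written 5′ to 3′ on the strand of the gene, and capitals mark the core TAATCC or its reverse complement GGATTA.
Syt2, GRCm38.p6 chr1:134646362-134646611, plus strand: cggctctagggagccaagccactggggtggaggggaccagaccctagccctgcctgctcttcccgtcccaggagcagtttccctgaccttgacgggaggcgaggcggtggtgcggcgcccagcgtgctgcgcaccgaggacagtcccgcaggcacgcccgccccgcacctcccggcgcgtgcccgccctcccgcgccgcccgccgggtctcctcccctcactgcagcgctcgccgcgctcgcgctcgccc
Lhx4, GRCm38.p6 chr1:155742028-155742277, minus strand: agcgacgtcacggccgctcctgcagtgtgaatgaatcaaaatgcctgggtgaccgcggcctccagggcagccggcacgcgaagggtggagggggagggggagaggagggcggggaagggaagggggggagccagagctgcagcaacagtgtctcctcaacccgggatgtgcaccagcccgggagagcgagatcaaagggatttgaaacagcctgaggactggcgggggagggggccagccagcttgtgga
Pcdh17, GRCm38.p6 chr14:84443313-84443562, plus strand: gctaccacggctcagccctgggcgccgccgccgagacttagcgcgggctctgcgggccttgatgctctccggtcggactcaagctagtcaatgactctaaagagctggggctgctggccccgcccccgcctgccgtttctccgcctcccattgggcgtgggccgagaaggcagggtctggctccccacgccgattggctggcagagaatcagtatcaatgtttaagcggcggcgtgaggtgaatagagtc
Car10, GRCm38.p6 chr11:93099040-93099289, plus strand: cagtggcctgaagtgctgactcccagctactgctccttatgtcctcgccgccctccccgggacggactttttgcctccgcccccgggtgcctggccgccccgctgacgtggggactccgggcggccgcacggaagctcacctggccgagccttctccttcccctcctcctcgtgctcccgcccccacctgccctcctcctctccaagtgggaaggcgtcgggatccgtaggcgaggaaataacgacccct
Trpm1, GRCm38.p6 chr7:64153585-64153834, plus strand: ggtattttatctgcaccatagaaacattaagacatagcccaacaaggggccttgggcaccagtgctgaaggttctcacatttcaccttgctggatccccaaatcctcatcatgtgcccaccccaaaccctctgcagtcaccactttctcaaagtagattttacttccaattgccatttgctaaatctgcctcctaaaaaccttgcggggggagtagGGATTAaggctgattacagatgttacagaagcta
Cabp5, GRCm38.p6 chr7:13397905-13398154, plus strand: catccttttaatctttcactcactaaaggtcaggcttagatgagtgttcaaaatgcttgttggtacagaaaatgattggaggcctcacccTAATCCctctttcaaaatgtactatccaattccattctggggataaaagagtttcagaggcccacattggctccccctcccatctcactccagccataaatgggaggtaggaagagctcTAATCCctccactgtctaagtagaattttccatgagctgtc
These windows were taken at the start that lies nearest to the start of the gene in the deposited tables. Promoter windows of 300 bases, 250 before and 50 after a start, were available for 25 of the 29 genes (not for Rgs11, Car8, Neto1 and Zfhx4). In these windows, on either strand, TAATCC was present in 4 of the 25 genes, namely Trpm1, Cabp5, Otx2 and Cabp2, compared with 8.14% of all 27025 genes with a window. In Trpm1 it began 34 bases before the start on the reverse strand, and in Cabp5 it was present at 160 and at 41 bases before the start, on the forward strand. The core TAATTA, which LIM-homeodomain factors can bind, was present in Pcp2 and Otx2, 2 of 25, compared with 6.12% of all genes. The windows of Syt2, Lhx4, Pcdh17 and Car10 held neither of these letter strings, which says nothing about the binding of the factors. TAATCC and TAATTA share their first letters but cannot be read from the same 6 bases.

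The level of each gene was first compared in RPKM, which is set per length of exon. Log2 fold changes and falls in percent are of TMM-normalized reads instead. With the scaling of RPKM the median log2 fold change of all genes was 0.13, compared with 0.0099. The RPKM of a gene can therefore fall less than its fold change says, or rise where that is below 0. In the sham pools the genes spanned from 119 RPKM for Gng13, the gamma subunit of the Go protein in ON bipolar cells, to 2.96 for Neto1, an auxiliary subunit of kainate receptors. The median level was 23.2 RPKM among the 12 rod bipolar and ON cascade genes and 4.42 among the 11 cone bipolar genes, and the other 6 genes had a median of 32.7. Gng13 (119 ± 8.19, SD, n = 3), Pcp2 (104 ± 3.08), Trnp1 (88.5 ± 3.93) and Otx2 (68.8 ± 3.43) stood at the head of the order with sham ranges that did not overlap. Below them came Scgn (42.1 ± 4.73) and Cabp5 (42.1 ± 3.36), which overlapped each other, and then Gnao1 (36.3 ± 2.25) and Prkca (34.6 ± 3.74), which also did. Trpm1 (29.2 ± 1.27) and Sebox (28.97 ± 2.50) overlapped and were followed by Prdm8 (23.3 ± 0.163) and Car10 (19.1 ± 1.51). The order continued from Lrit3 (17.4 ± 0.457) through Rgs11, Rgs16, Car8, Rgs7 and Gpr179 to Bhlhe23 (8.74 ± 1.83) without a gap between the ranges of neighbours. At its low end, between Vsx1 (7.0 ± 0.317) and Neto1, stood 8 further genes, 7 of them cone bipolar genes and the remaining one Nyx (4.08 ± 0.332). Of the 28 pairs of neighbours, 17 had overlapping sham ranges and were not ordered beyond their spread. The coefficient of variation between sham pools had a median of 7.97% and ran from 0.701% for Prdm8 to 20.9% for Bhlhe23.

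**Figure D1:**
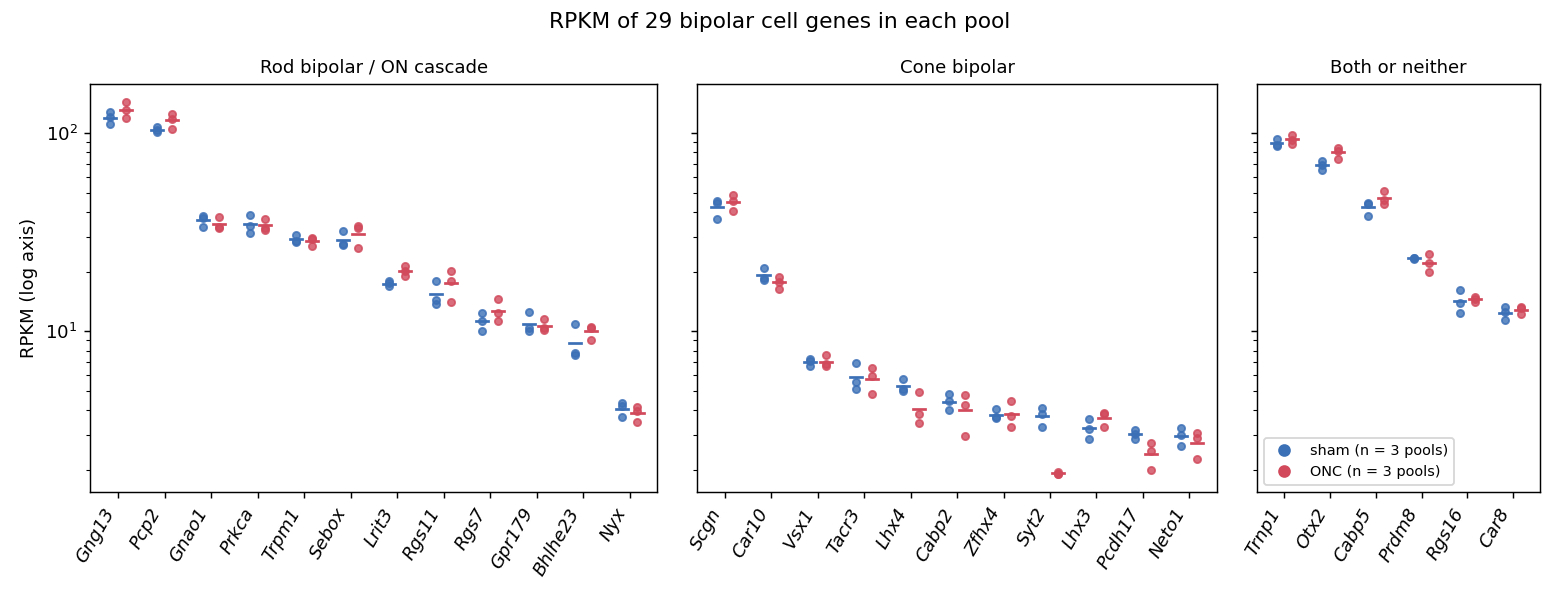
RPKM (log axis) of the 29 genes in each of the 3 sham pools (blue) and 3 ONC pools (red), ordered within each list by the sham mean. Points are pools and short lines are group means. Syt2, with 3.30 to 4.12 RPKM in sham and 1.91 to 1.95 in ONC, has the widest gap between the groups, and most other genes overlap.

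Among the rod bipolar and ON cascade genes, none was called changed after ONC, while 4 of the 11 cone bipolar genes were called lower and none higher. Over all genes tested, 6.09% were called, 3.72% lower and 2.38% higher. Log2 fold changes (ONC over sham) of the 12 rod bipolar and ON cascade genes lay between -0.19 and 0.09, with 6 above and 6 below 0 and a median of -0.0071, compared with 0.0099 over all genes tested. Those of the 11 cone bipolar genes lay between -1.09 and 0.06, with 10 below 0 and a median of -0.23. The members of both classes or neither ranged from -0.20 to 0.09 with a median of -0.064, and none of the 6 was called. The 12 and 6 uncalled genes were also uncalled in DESeq2's Wald test, and 2 and 1 of them had an unadjusted edgeR p under 0.05, a threshold that 16.7% of all genes passed. Outside these lists, 18 further bipolar cell genes, not divided by class, had log2 fold changes between -0.51 and 0.52 with a median of -0.045. Of these 18 genes, 12 lay below 0 and 6 above, and 1 was called lower. A median as low as that of the 11 cone bipolar genes was not seen in this set.

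**Figure D2:**
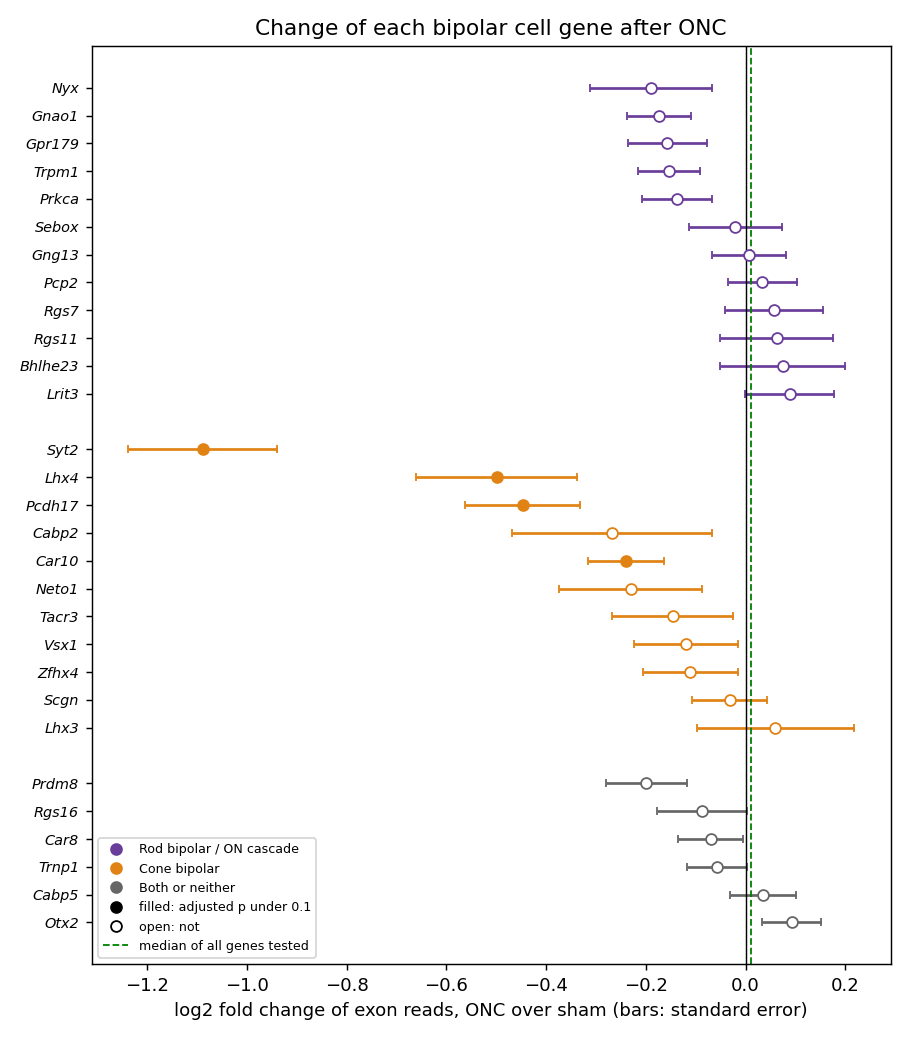
Log2 fold change of exon reads, ONC over sham (3 pools each), with its standard error, for each of the 29 genes by list. Filled points had an FDR under 0.1 in edgeR's test, and the dashed line is the median of all genes tested, 0.0099. The 4 filled points are the cone bipolar genes Syt2, Lhx4, Pcdh17 and Car10, all left of 0.

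Syt2 encodes synaptotagmin 2, a calcium sensor of synaptic vesicle release that marks particular OFF and ON cone bipolar types and is also used by other fast-firing neurons. The files place it on chromosome 1 from 134646681 to 134749417 (GRCm38). It had 3.30, 3.82 and 4.12 RPKM in sham pools 1, 2 and 3 and 1.91, 1.91 and 1.95 in ONC pools 1, 2 and 3, from 257, 310 and 341 and 164, 161 and 171 exon reads. Every ONC pool was therefore below every sham pool, and the ONC pools were nearly equal. The log2 fold change was -1.09 (SE 0.15, FDR = 0.00011, edgeR), a fall by 53.0%. It was the only one of the 29 genes to pass the threshold for DEGs, which also asks for a fold change above 1.5 and which 1.66% of all genes tested passed, in the lower direction 0.834% of all genes tested. Syt2 was called lower in all 20 alternatives of the exon comparison, with log2 fold changes between -1.20 and -0.70.

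Pcdh17, Lhx4 and Car10 fell by less. Pcdh17, a protocadherin that mediates adhesion between neurons (chromosome 14 from 84443563 to 84537060), had 2.87, 3.17 and 3.03 RPKM in the sham pools and 2.74, 2.51 and 1.99 in the ONC pools. The groups did not overlap, and the log2 fold change was -0.45 (SE 0.12, FDR = 0.0327, edgeR), a fall by 26.6%. Lhx4, a LIM-homeodomain transcription factor of cone bipolar cells (chromosome 1 from 155701692 to 155742027), had 5.14, 5.72 and 5.01 RPKM in the sham pools and 3.82, 3.45 and 4.93 in the ONC pools. ONC pool 3 stood next to the sham values and the other two well below them, and the log2 fold change was -0.50 (SE 0.16, FDR = 0.0962, edgeR), a fall by 29.2%. Car10, a carbonic anhydrase-related protein without catalytic activity (chromosome 11 from 93099290 to 93601751), had 18.5, 20.9 and 18.1 RPKM in the sham pools and 18.8, 17.8 and 16.3 in the ONC pools. Its groups overlapped in RPKM. On TMM-normalized exon reads (scaled to library size) they did not, at 81.1, 91.7 and 87.0 in sham and 80.1, 72.1 and 68.0 in ONC, and the log2 fold change was -0.24 (SE 0.076, FDR = 0.0931, edgeR), a fall by 15.3%. Pcdh17 was called in 13 of the 20 alternatives, and Lhx4 and Car10 in 11 each. With the replicate number as a block, Pcdh17 had an FDR of 0.0360, Lhx4 of 0.106 and Car10 of 0.129 in edgeR's test.

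The other 7 cone bipolar genes were not called, with FDRs between 0.444 and 0.889 in edgeR's test. Scgn, the calcium-binding protein secretagogin and the most abundant of the list, had 45.3, 44.4 and 36.7 RPKM in sham and 40.5, 48.6 and 45.2 in ONC, with a log2 fold change of -0.03 (SE 0.074, FDR = 0.873). Vsx1, a homeodomain factor mainly of OFF cone bipolar cells, had 7.06, 6.66 and 7.28 RPKM in sham and 7.59, 6.83 and 6.65 in ONC, with a log2 fold change of -0.12 (SE 0.10, FDR = 0.606, edgeR). Both genes overlapped between the groups. Cabp2, a calcium-binding protein, had a log2 fold change of -0.27 with the largest SE of all 29 genes (0.20). The log2 fold change was -0.23 for Neto1, -0.15 for Tacr3, the neurokinin B receptor of OFF cone bipolar cells, and -0.11 for the zinc finger homeodomain factor Zfhx4. Lhx3, a LIM-homeodomain factor of OFF types, had the only log2 fold change above 0 in the list, at 0.06 (SE 0.16).

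The genes of the ON cascade were described from the receptor inward. Grm6, the glutamate receptor itself, is not among the 29 genes and had 17.3, 19.6 and 17.4 RPKM in sham and 19.4, 16.7 and 18.0 in ONC, with a log2 fold change of -0.12 (SE 0.076, FDR = 0.438, edgeR). Nyctalopin (Nyx) and Lrit3, leucine-rich repeat proteins that position the channel at the synapse, had log2 fold changes of -0.19 (SE 0.12) and 0.09 (SE 0.089). Lrit3 had 17.9, 17.4 and 16.9 RPKM in sham and 21.2, 19.0 and 20.1 in ONC, without overlap in RPKM, but it overlapped on TMM-normalized reads and was not called (FDR = 0.670, edgeR). For the Go protein, Gng13 had 127, 120 and 111 RPKM in sham and 119, 143 and 130 in ONC, with a log2 fold change of 0.0068 (SE 0.074, FDR = 0.973, edgeR). The alpha subunit Gnao1 had 37.9, 37.1 and 33.7 RPKM in sham and 37.8, 33.2 and 33.6 in ONC, with a log2 fold change of -0.17 (SE 0.064, unadjusted p = 0.0135, FDR = 0.157, edgeR). The groups of both subunits overlapped in RPKM. Pcp2, a modulator of Go, had 107, 104 and 101 RPKM in sham and 105, 125 and 117 in ONC, with a log2 fold change of 0.03 (SE 0.069, FDR = 0.853, edgeR), and 87.8% of its exon reads were uniquely mapped, compared with at least 99% for each of the other 28 genes.

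For the complex that ends the Go signal, Rgs7 and Rgs11, the GTPase-accelerating subunits, had log2 fold changes of 0.06 (SE 0.098) and 0.06 (SE 0.11), and Gpr179, which anchors them, had -0.16 (SE 0.080). Trpm1, the channel, had 28.7, 30.7 and 28.3 RPKM in sham and 29.5, 27.0 and 29.1 in ONC. These values overlapped, and the log2 fold change was -0.15 (SE 0.063, unadjusted p = 0.0238, FDR = 0.211, edgeR). Prkca, the rod bipolar kinase, had 33.8, 38.7 and 31.4 RPKM in sham and 36.9, 32.4 and 33.2 in ONC, also overlapping, with a log2 fold change of -0.14 (SE 0.070, FDR = 0.328, edgeR). Bhlhe23, a transcription factor that rod bipolar cells need to mature, and the homeobox gene Sebox had 0.07 (SE 0.12) and -0.02 (SE 0.093). Of 13 ON synapse genes that are not among the 29, none was called, compared with 6.09% of all genes tested. An unadjusted edgeR p under 0.05, which 16.7% of all genes had, was found for 2 of the 13. These were Gnb3 and Gnb5, G protein beta subunits, with log2 fold changes of 0.17 (SE 0.071, FDR = 0.231) and 0.17 (SE 0.059, FDR = 0.119).

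Among the genes of both classes or neither, Trnp1, a nuclear protein, had 93.0, 87.1 and 85.5 RPKM in sham and 88.2, 91.7 and 98.0 in ONC, with a log2 fold change of -0.06 (SE 0.061, FDR = 0.687, edgeR). Otx2, the homeodomain factor required for photoreceptor and bipolar cell fate, had 69.0, 72.1 and 65.2 RPKM in sham and 74.3, 84.3 and 80.9 in ONC. Its ONC pools were above its sham pools in RPKM but not on TMM-normalized reads, and the log2 fold change was 0.09 (SE 0.059, FDR = 0.461, edgeR). Cabp5, a calcium-binding protein of rod and cone bipolar cells, had 43.6, 44.4 and 38.2 RPKM in sham and 43.9, 51.1 and 45.7 in ONC, with a log2 fold change of 0.03 (SE 0.066, FDR = 0.837, edgeR). The transcription regulator Prdm8 had the lowest log2 fold change of these genes, at -0.20 (SE 0.080, unadjusted p = 0.0228, FDR = 0.208, edgeR), followed by -0.09 for Rgs16 and -0.07 for Car8. Of 18 further bipolar cell genes that are not among the 29, 1 was called lower and none higher, compared with 3.72% and 2.38% of all genes. This was Irx6, an Iroquois homeodomain factor of OFF cone bipolar types, with 4.61, 4.32 and 3.98 RPKM in sham and 2.99, 3.24 and 3.61 in ONC and a log2 fold change of -0.51 (SE 0.14, FDR = 0.0529, edgeR). Fezf2, a zinc finger transcription factor, had 1.85, 1.69 and 2.09 RPKM in sham and 2.33, 2.79 and 3.70 in ONC, without overlap in RPKM but with overlap on TMM-normalized reads, and a log2 fold change of 0.52 (SE 0.21, unadjusted p = 0.0217, FDR = 0.203, edgeR). Nxph1, a secreted ligand of neurexins, had a log2 fold change of -0.41 (SE 0.18, unadjusted p = 0.0328, FDR = 0.244, edgeR). With Irx6, these were the 3 of the 18 genes with an unadjusted edgeR p under 0.05, compared with 16.7% of all genes tested. Isl1, a factor of ON bipolar, amacrine and ganglion cells, had a log2 fold change of -0.02 (SE 0.074, FDR = 0.916, edgeR).

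The contrast between the lists was then followed pool by pool. For each gene, TMM-normalized exon reads were set relative to the mean of the sham pools on a log2 scale, and the median was taken over the genes of a list. The cone bipolar genes had medians of -0.08, 0.04 and 0.0081 in sham pools 1, 2 and 3 and of -0.22, -0.20 and -0.20 in ONC pools 1, 2 and 3, so each ONC pool was lower than each sham pool. The rod bipolar and ON cascade genes had medians of -0.0026, -0.00080 and -0.02 in the sham pools and -0.07, -0.06 and 0.01 in the ONC pools, and here ONC pool 3 was higher than all sham pools. In summed RPKM neither list separated the groups, with 92.4 to 107 in sham and 93.7 to 102 in ONC for the cone bipolar genes and 395 to 433 and 427 to 469 for the rod bipolar and ON cascade genes. These sums are led by the most abundant genes, such as Scgn, whereas the 3 cone bipolar genes that fell most had at most 5.29 RPKM in sham. No p is given for the lists, since their genes were chosen with results of these samples known.

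**Figure D3:**
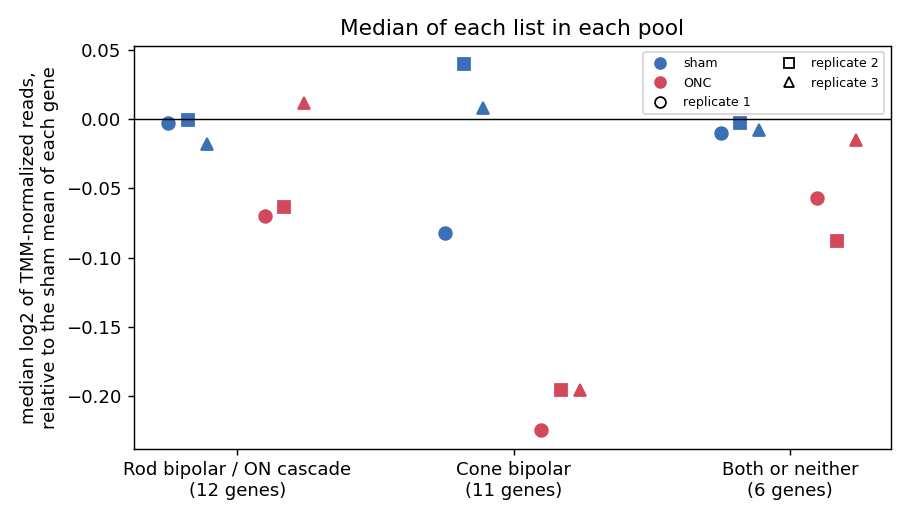
Median over the genes of each list of log2 TMM-normalized exon reads, relative to the sham mean of each gene, in each of the 3 sham (blue) and 3 ONC (red) pools. The cone bipolar genes lie between -0.08 and 0.04 in the sham pools and between -0.22 and -0.20 in the ONC pools, while the ONC pools of the rod bipolar and ON cascade genes lie between -0.07 and 0.01.

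On TMM-normalized reads, 10 of the 29 genes had all ONC pools below all sham pools and none had them above, compared with 10.8% and 11.0% of all genes tested. These were Syt2, Lhx4, Pcdh17, Car10 and Neto1 among the cone bipolar genes, Trpm1, Nyx and Gnao1 among the rod bipolar and ON cascade genes, and Prdm8 and Car8. In the deposited RPKM, 3 genes were below without overlap (Syt2, Lhx4 and Pcdh17) and 2 above (Lrit3 and Otx2), compared with 3.45% and 25.4% of all genes. The divisor of RPKM counts intron reads too, and the exon share of the reads on genes was 70.9% to 76.6% in sham and 78.5% to 80.4% in ONC. With the scaling of RPKM the median log2 fold change of all genes was 0.13, and edgeR called 1507 genes higher and 223 lower in place of 325 and 508. Of the 29 genes, it then called 2 lower (Syt2 and Pcdh17) and 1 higher (Otx2, 0.22). The medians of the lists moved with that shift, to 0.12 for the rod bipolar and ON cascade genes and -0.11 for the cone bipolar genes. Their difference was -0.22 with either scaling, and relative to the median of all genes the cone bipolar genes stood at -0.24 in both.

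The number of genes called depended on single pools. Without sham pool 2 or without sham pool 3, only Syt2 was called, when 1.61% and 1.69% of all genes were called lower. Without ONC pool 2, Syt2 and Pcdh17 were called, and without ONC pool 3, Syt2 and Lhx4, when 1.91% and 1.995% of all genes were called lower. ONC pool 1 differed from ONC pools 2 and 3 by a chi-square of 13.8 and 10.8 per degree of freedom over genes, compared with 4.54 between those 2 pools and with 5.54, 7.57 and 9.0 between the sham pools. Without ONC pool 1, 10 of the 29 genes were called lower, when 9.27% of all genes were. These were 5 cone bipolar genes (Zfhx4 beside the 4 above), 4 rod bipolar and ON cascade genes (Prkca, Trpm1, Gpr179 and Gnao1) and Prdm8. The difference between the medians of the lists remained below 0 in all of these fits, between -0.23 and -0.16.

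Exon length moved with the change of the genes. Over the 29 genes, Spearman's rho between exon length and log2 fold change was -0.46, compared with -0.23 over the 13670 genes tested (these are correlations across genes of the same 6 libraries, which are not independent replicates). It was -0.57 over the 12 rod bipolar and ON cascade genes and 0.06 over the 11 cone bipolar genes. All 7 genes with exons over 5000 bases (Trpm1, Prkca, Gnao1, Gpr179, Pcdh17, Zfhx4 and Car8) had log2 fold changes below 0, with a median of -0.15, while 5 of the 10 genes under 2000 bases did, with a median of -0.0071. Lhx4, with 1853 bases, and Syt2, with 3386, were not among the long genes. After a correction for exon length, 3 of the 29 genes were called lower, when 3.23% of all genes were, compared with 3.72% without it. These were Syt2, Lhx4 and Car10 but not Pcdh17 (-0.33, SE 0.11, FDR = 0.106, edgeR). The medians were then -0.02 for the rod bipolar and ON cascade genes and -0.24 for the cone bipolar genes.

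**Figure D4:**
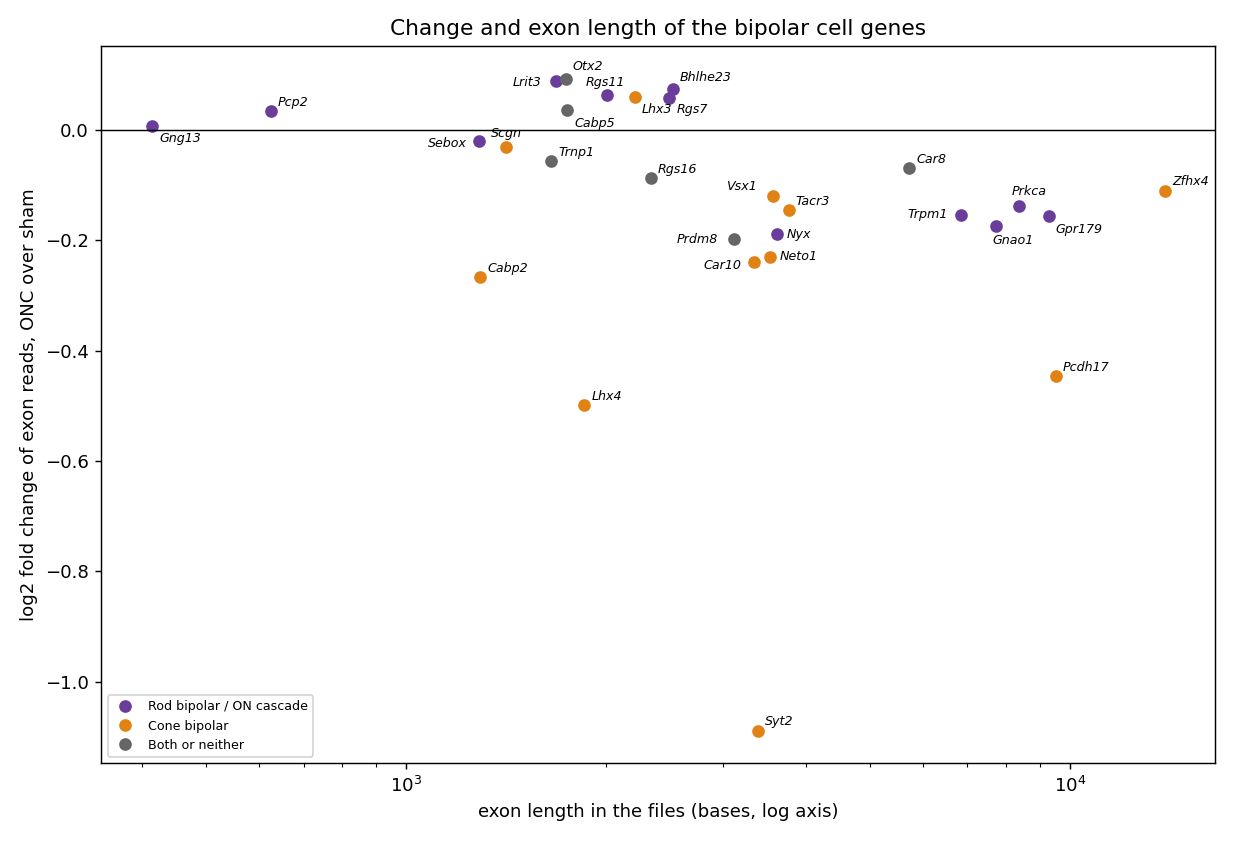
Log2 fold change of exon reads, ONC over sham, against the exon length of each of the 29 genes (bases, log axis), coloured by list. The 5 genes of the rod bipolar and ON cascade list that lie below -0.1 include 4 with exons over 5000 bases, and the cone bipolar genes Syt2 (3386 bases) and Lhx4 (1853 bases) lie below the genes nearest to them in length.

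Intron reads, taken as the reads on the whole gene minus those on its exons, gave a second readout of the same genes that contains unspliced RNA. Bhlhe23 and Sebox had none, and 27 of the 29 genes were among the 13317 with a mean of at least 10 intron reads. In a separate edgeR fit, 1 of the 27 was called, compared with 2.88% of all genes, 2.37% lower and 0.511% higher. This was Prkca, with 1886, 2390 and 3946 intron reads in sham pools 1, 2 and 3 and 1405, 1004 and 1941 in ONC pools 1, 2 and 3, a log2 fold change of -0.87 (SE 0.23, FDR = 0.0837, edgeR). Sham pool 3, which had the lowest exon share, held the most Prkca intron reads, and the raw reads of the groups overlapped. Standard errors of the log2 fold changes ran from 0.14 to 0.84 over the 27 genes on introns, compared with 0.059 to 0.20 over the 29 genes on exons, so a gene that was not called on introns is not shown to be unchanged. The Prkca call was lost without sham pool 2 or 3 and without ONC pool 2 or 3, when few genes of any kind were called. Of all genes, 0 and 92 were called without sham pools 2 and 3. Without ONC pools 2 and 3, 0 and 1 were called, compared with 383 with all pools. The intron share of Prkca reads was 28.0% in the sham group and 16.5% in the ONC group. Intron reads were a smaller part of the ONC libraries as a whole. The exon share of reads on all genes was 70.9% to 76.6% in the sham pools and 78.5% to 80.4% in the ONC pools.

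Of the other genes, 9 had an unadjusted edgeR p under 0.05 on introns without passing the FDR, so that 10 of 27 did in all, compared with 17.4% of all genes. Below 0 were Tacr3 (-1.36), Zfhx4 (-1.05), Car10 (-0.88), Neto1 (-0.78), Car8 (-0.69), Rgs7 (-0.55) and Gnao1 (-0.36), with FDRs between 0.106 and 0.219, and above 0 were Otx2 (0.53, FDR = 0.274) and Pcp2 (0.39, FDR = 0.213). Car10 had 620, 928 and 1747 intron reads in the sham pools and 520, 455 and 749 in the ONC pools, and Zfhx4 had 156, 210 and 525 and 115, 128 and 173. Sham pool 3 was the highest for both genes. The genes that fell most on exons were not called on introns. Syt2, with only 8 to 25 intron reads per pool, had -0.15 (SE 0.63), Pcdh17 -0.21 (SE 0.39) and Lhx4 -0.20 (SE 0.18). The intron reads of Syt2 were too few to show whether it fell on introns as on exons. The median over the list was -0.07 for 10 rod bipolar and ON cascade genes, -0.20 for 11 cone bipolar genes and 0.03 for all genes. Of the 12 ON synapse genes outside the 29 that were tested on introns, 1 was called higher, compared with 0.511% of all genes. This was Gnb3 (0.60, SE 0.14, FDR = 0.0708, edgeR).

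**Figure D5:**
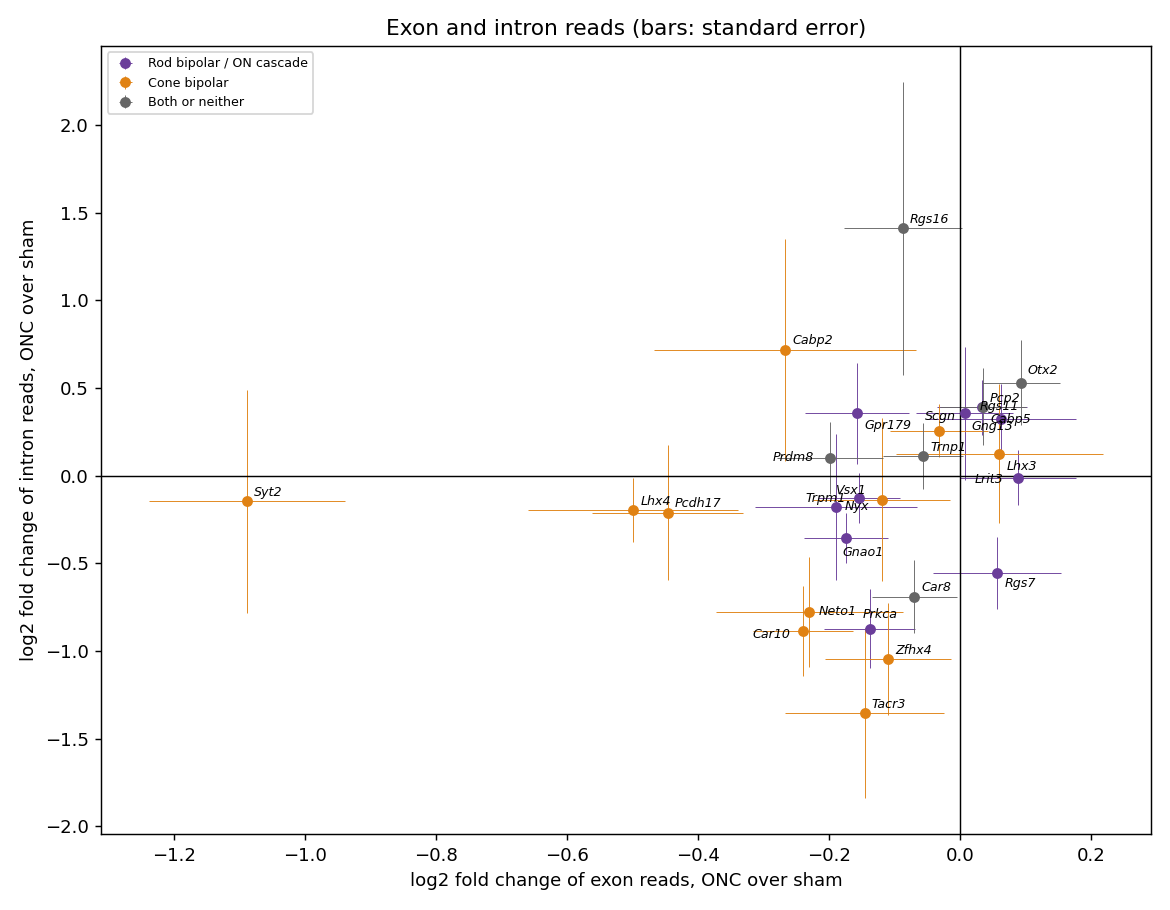
Log2 fold change (ONC over sham) of intron reads against that of exon reads for the 27 genes tested on both, with standard errors, coloured by list. Syt2 lies far left on the exon axis at -1.09 and at -0.15 on the intron axis, where its standard error is wide (0.63). Prkca, Car10, Zfhx4 and Tacr3 lie at -0.87 to -1.36 on the intron axis and between -0.24 and -0.11 on the exon axis.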

How the data were processed

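RNA-seq of 3 ONC and 3 sham pools of whole retina was analysed, with groups taken from the labels, which name no batch. The authors mapped reads with CLC Genomics Workbench 6.0.1 and deposited raw counts of reads on the exons and on the whole of each gene, RPKM values and exon lengths. The labels name mm9, but positions match RefSeq GRCm38.p6 (29 of 29 genes on the same chromosome, 18 with an identical start or end). From the counts, log2 fold changes and adjusted p were computed with edgeR 4.0.16 in R 4.3.3. The model held condition alone, and the standard error was taken as the size of the log2 fold change divided by the root of F. Intron reads had their own TMM factors. The 29 genes, the lists and the alternatives were chosen with earlier results of these data known. All 29 genes are named, with full statistics for those called and for the 3 most abundant of each list, and other genes that were called, or that had an unadjusted p under 0.05, were chosen after their values were seen. Alternatives were DESeq2 1.42.0 (size factors and Wald test), the sum of exon reads, the scaling of RPKM, limma 3.58.1 on log2 RPKM plus 0.1 or 1, no filter, RPKM above 1, filterByExpr, unique reads, total gene reads, an FDR of 0.05, the replicate block and leaving out each pool. A correction for exon length (lowess span 0.4) was added after the data were seen. The procedures were tested on simulated data. Tables used Python 3.11.15. Promoter sequences are from RefSeq (GRCm38.p6). Protein sequences were not used here. A further bipolar cell gene that the naming rule covers is not reported here.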

Additional observations from a re-analysis of the deposited data

How the results depend on the processing

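Pools with the same number did not deviate together (correlations of -0.06, -0.03 and 0.0069), so the numbers were not taken as pairs. With the replicate block, 2 of the 29 genes were called lower on exon reads, both cone bipolar genes, and 2 on introns. Of all genes, 3.27% and 2.38% were called lower in these fits. The 4 genes called lower (3.72% of all genes) became 2 with the sum of exon reads (3.23%) and with the scaling of RPKM (1.63%), all cone bipolar genes. The scaling of RPKM also called 1 higher. They became 2, both cone bipolar genes, at an FDR under 0.05, a threshold for which no share of all genes is given here. With limma they became 1 at 0.1 (1.046%) and 1 at 1 (1.075%), again all cone bipolar genes. They became 7 with total gene reads, 2 of them rod bipolar and ON cascade genes, and no filter added 1 gene of that list, when 5.74% and 3.925% of all genes were called lower, compared with 3.72%. Leaving out 1 pool gave 1 to 10 genes lower, when 1.61% to 9.27% of all genes were called lower. Of these 1 to 10 genes, 1 to 5 were cone bipolar and 0 to 4 rod bipolar and ON cascade genes. DEGs among the 29 numbered 1 to 2 in these fits, for which no share of all genes is given here. With all pools there was 1, when 1.66% of all genes were DEGs. The single gene called on introns, when 2.37% of all genes were called lower, became 8 with exon library sizes (9.61%). The median log2 fold change over all genes was then -0.22. The count became 2 with a mean of at least 50 intron reads (4.49%) and 5 with DESeq2's Wald test (5.48%). Without 1 pool it was 0 to 5, when 0% to 5.52% of all genes were called lower. The median of the rod bipolar and ON cascade genes was 0.12 with the scaling of RPKM, 0.11 and 0.11 with limma at 0.1 and 1, -0.055 with total gene reads and -0.069 to 0.021 without 1 pool. That of the cone bipolar genes was -0.20 with the sum of exon reads, -0.11 with the scaling of RPKM, -0.11 and -0.084 with limma, and -0.25 to -0.20 without 1 pool. None of the 4 called genes changed direction. The sign of genes that were not called turned with the scaling of RPKM and with limma at 0.1 and 1 for Sebox (0.10, 0.096 and 0.093), Scgn (0.088, 0.090 and 0.088), Trnp1 (0.065, 0.065 and 0.064), Car8 (0.051, 0.052 and 0.049), Rgs16 (0.031, 0.038 and 0.035), Zfhx4 (0.0095, 0.00058 and 0.0018) and Vsx1 (0.0038, 0.0025 and 0.0024). It turned with total gene reads for Rgs7 (-0.46, then called), Lrit3 (-0.0083), Sebox (0.021) and Scgn (0.022), and with the sum of exon reads for Sebox (0.0066). It turned with the exon length correction, without and with the replicate block, for Gng13 (-0.0011 and -0.00099), Cabp5 (-0.015 and -0.015) and Zfhx4 (0.053 and 0.048). Leaving out 1 pool turned it for Pcp2 (-0.010 to 0.081), Bhlhe23 (-0.039 to 0.23), Sebox (-0.078 to 0.074), Rgs7 (-0.038 to 0.12), Rgs11 (-0.064 to 0.18), Gng13 (-0.048 to 0.053), Lhx3 (-0.00045 to 0.13), Scgn (-0.083 to 0.017) and Cabp5 (-0.016 to 0.062). The cause of these shifts was not tested.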
